A study of Saccharomyces cerevisiae with 5 samples.

Results

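The mating pheromone response genes are 36 annotated coding sequences (CDS) of the 6697 in the deposited mRNA table. They were chosen by their role in MATa cells, listed by systematic name, and the list was drawn up with results from both mRNA libraries already known. Every change with copper given here is therefore a description and carries no test. The genes fall into 7 roles: receptor and G protein (7), kinase cascade (6), transcription and cell cycle arrest (3), a-factor and barrier protease (4), agglutinins (2), cell and nuclear fusion (8) and other pheromone-regulated membrane proteins (6). *PRM5* is not among them.

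A budding yeast cell of mating type a carries the receptor Ste2, which binds the α-factor secreted by cells of the opposite type. The receptor releases the βγ part of a heterotrimeric G protein, and this activates a MAP kinase cascade held on the scaffold Ste5. The last kinase, Fus3, acts on the transcription factor Ste12, which binds pheromone response elements upstream of its targets, and on Far1, which stops the cell cycle. The targets make the cell agglutinate, grow towards its partner and fuse with it. Cells growing alone keep the components of the pathway at a basal level, and many fusion genes are nearly silent until pheromone is present.

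The mRNA came from BY4741, a haploid laboratory strain that the study lists as MATa with the deletions *his3Δ1*, *leu2Δ0*, *met15Δ0* and *ura3Δ0*, growing in YPD. One poly(A)+ library was made from cells without added copper and 1 from cells given 1 mM CuSO4 for 4 hours. No pheromone treatment is named for either condition, and both groups are the same strain. A γH2A ChIPseq peak list completes the data: γH2A is the phosphorylated histone H2A that marks stalled replication forks. With 1 library in each condition no difference has a replicate check. A difference between libraries cannot be told apart from one between single cultures.

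The deposited mRNA values are log2 of reads on a CDS, scaled to the larger library and divided by CDS length in kb. They give back whole reads, 5572698 on CDS in YPD and 5749810 with CuSO4. Reads on the 36 genes ran from 30 to 4433 in YPD, with a median of 273, and from 48 to 5320 with CuSO4. All 36 passed the minimum of 20 reads in the higher library, which 6078 CDS reached. Changes are the difference of the log2 values, CuSO4 minus YPD. The 95% interval beside each is an exact Clopper-Pearson interval on the reads of both libraries, and it covers counting error only.

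The labelled cell type was checked first, since 7 of the genes are transcribed in a cells alone. All 7 of these a-specific genes were read, at log2 levels from 8.03 (*ASG7*) to 12.70 (*MFA2*) in YPD, where the median of all CDS was 7.82. Of the α-specific genes, *MF(ALPHA)1*, which encodes the main α-factor precursor, had 0 reads in both libraries, which allows up to 3. *STE3*, the receptor of α cells, had 11 reads in YPD and 7 with CuSO4. *MF(ALPHA)2* had 46 and 30 reads, and *SAG1*, the α-agglutinin, had 190 and 207. On the per-length scale the highest of these in YPD was *MF(ALPHA)2* at 7.04, below *ASG7*. Its change of -0.67 (-1.38 to 0.03) is past 1.5-fold on the lower side, with an interval that includes 0. The deleted *LEU2*, *MET17* (also named *MET15*) and *URA3* had 0 reads in each library. *HIS3*, of which *his3Δ1* removes only part, had 291 and 309 reads. The α2 CDS of the mating-type cassettes are not part of this check. They had few reads in YPD and more with CuSO4, as given at the end.

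**Figure D1:**
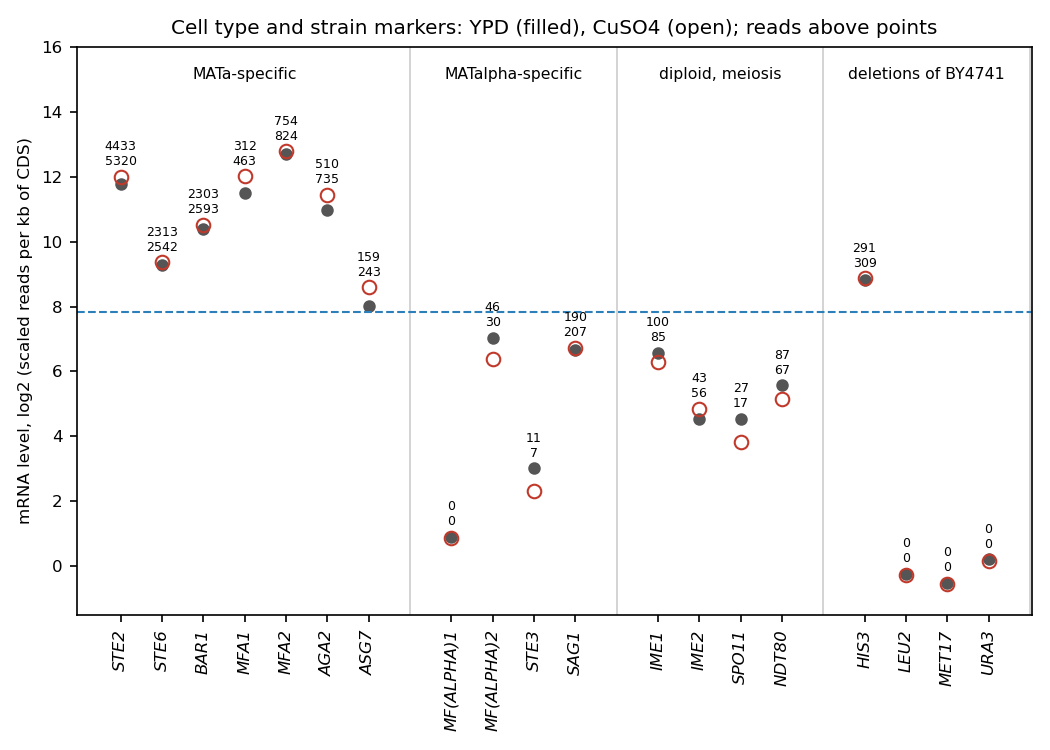
mRNA level (log2 of scaled reads per kb of CDS) of cell type and strain marker genes in YPD (filled points) and with CuSO4 (open points), 1 library each; the numbers above a point are its reads in YPD and, under them, with CuSO4, and the dashed line is the median of all CDS in YPD. All 7 MATa-specific genes lie above that line at 8.03 or more, the 4 MATα-specific genes lie below it, and *LEU2*, *MET17* and *URA3* sit at the value given to a CDS with 0 reads.

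The sequences upstream of these genes carry the sites through which the pathway acts, and a few are shown for that reason. The pheromone response element was searched as TGAAACA on both strands from 250 bases before to 50 after the first base of the CDS in the R64 genome. It was present at 18 of the 36 genes, in 2 of them (*STE7* and *PRM10*) only inside the CDS. Of all 6697 CDS, 7.29% hold it. At least 2 copies were present at 4 members (*FUS1*, *FUS2*, *KAR4* and *PRM1*) and at 0.418% of all CDS. The first 3 sequences below are shown for their repeated elements, and the other 3 belong to *AGA1*, *PRM6* and *FIG1*, which were past 1.5-fold with CuSO4 and hold a match. *PRM7* and *PRM8*, also past 1.5-fold, have neither a 7-letter nor a 6-letter match in the window and are not shown. Each runs 5′ to 3′ on the strand of the gene, with TGAAACA or its reverse complement TGTTTCA in capitals, except that *FIG1* holds no 7-letter match and its 6-letter matches (TGAAAC or GTTTCA) are in capitals.
FUS1, chromosome III, 71553 to 71702, plus strand: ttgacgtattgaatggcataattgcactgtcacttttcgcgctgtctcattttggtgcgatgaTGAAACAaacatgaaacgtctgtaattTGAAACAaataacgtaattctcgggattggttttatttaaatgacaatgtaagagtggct
PRM1, chromosome XIV, 110667 to 110816, plus strand: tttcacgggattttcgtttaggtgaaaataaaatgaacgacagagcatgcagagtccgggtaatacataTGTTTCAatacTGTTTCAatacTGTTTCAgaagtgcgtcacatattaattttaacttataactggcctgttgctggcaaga
KAR4, chromosome III, 27679 to 27878, plus strand: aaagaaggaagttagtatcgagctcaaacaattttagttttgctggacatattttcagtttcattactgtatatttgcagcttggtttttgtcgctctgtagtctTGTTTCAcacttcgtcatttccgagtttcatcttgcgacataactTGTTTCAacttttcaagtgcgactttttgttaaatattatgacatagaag
AGA1, chromosome XIV, 703449 to 703598, plus strand: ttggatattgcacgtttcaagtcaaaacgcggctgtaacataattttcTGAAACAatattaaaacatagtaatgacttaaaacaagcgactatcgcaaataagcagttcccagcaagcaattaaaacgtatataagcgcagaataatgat
PRM6, chromosome XIII, 181176 to 181325, minus strand: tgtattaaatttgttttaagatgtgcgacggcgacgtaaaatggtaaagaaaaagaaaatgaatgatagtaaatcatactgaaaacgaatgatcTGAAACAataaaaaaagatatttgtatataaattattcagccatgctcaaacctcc
FIG1, chromosome II, 316718 to 316867, plus strand: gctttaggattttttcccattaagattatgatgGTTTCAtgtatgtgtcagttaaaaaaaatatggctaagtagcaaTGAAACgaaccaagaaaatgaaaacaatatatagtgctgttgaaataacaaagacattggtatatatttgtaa

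In *PRM1* 3 elements follow each other on the minus strand, their leftmost bases at -181, -170 and -159 from the start of the CDS. In *FUS1* both 7-letter elements are on the plus strand, at -187 and -160, with a 6-letter match at -176 between them. *KAR4* has elements at -145 and -100, both on the minus strand. *AGA1* has a single one at -202, and *PRM6* has one at -156. A match is a description of the letters and not a measured binding site.

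The a-specific genes have a further feature in common. The repressor α2, which keeps them silent in α cells, binds an operator whose half-site holds the letters CATGTAA. Within 500 bases before the CDS this core, on either strand, was found at all 7 a-specific members, at 2 of the other 29 (*PRM2* and *STE20*) and at 6.30% of all CDS. In the shorter window used for the pheromone response element it was found at 7 members, *PRM2* and the a-specific genes other than *AGA2*, and at 3.76% of all CDS. The windows of *STE2* and *MFA2* are shown because the half-site core and the pheromone response element lie side by side in them; both are in capitals.
STE2, chromosome VI, 82340 to 82419, plus strand: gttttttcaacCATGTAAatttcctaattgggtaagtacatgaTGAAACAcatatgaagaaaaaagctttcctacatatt
MFA2, chromosome XIV, 352174 to 352253, plus strand: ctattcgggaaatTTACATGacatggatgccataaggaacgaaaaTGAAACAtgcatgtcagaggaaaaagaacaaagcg
By their leftmost bases, the core is at -229 and the element at -197 in *STE2*, and at -227 and -195 in *MFA2*. The core is on the plus strand in *STE2* and on the minus strand in *MFA2*, so the arrangements are not the same. In *STE6* the core is at -212 on the plus strand and the element at -161. *BAR1* has cores at -264 on the plus strand and -241 on the minus strand, and elements at -274 and -184. Since the matched cores differ in strand, spacing is not compared between these genes.

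Levels per length differed widely between the members. In YPD the highest were *MFA2* (12.70), *STE2* (11.79) and *MFA1* (11.51), a pair of a-factor precursor genes and the receptor. The lowest were *PRM6* (4.87), *FUS2* (5.45) and *PRM7* (5.54). The median of the members was 7.83, against 7.82 for all CDS, and 18 of the 36 were above the median of all CDS. By role, the median log2 level was 10.95 for the a-factor and barrier genes and 9.44 for the receptor and G protein genes. It was 7.48 for the kinase cascade and 6.45 for the fusion genes. The median of the fusion genes was thus the lowest of these, but single genes overlapped between roles. *STE11* (6.70) and *STE7* (7.12) of the cascade were below the fusion gene *FUS1* (7.87). *MFA1* and *MFA2* are CDS of only 111 and 117 bp, so their levels per kb rest on 312 and 754 reads in YPD. With CuSO4 *MFA2* was again highest at 12.78, *MFA1* and *STE2* changed places, and *PRM7* became the lowest at 4.52. Lower in the order several genes moved by a few ranks: *FIG1* went from rank 31 to 25, *PRM1* from 28 to 23, *PRM8* from 22 to 18, *PRM6* from 36 to 32, and *PRM9* from 20 to 24.

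**Figure D2:**
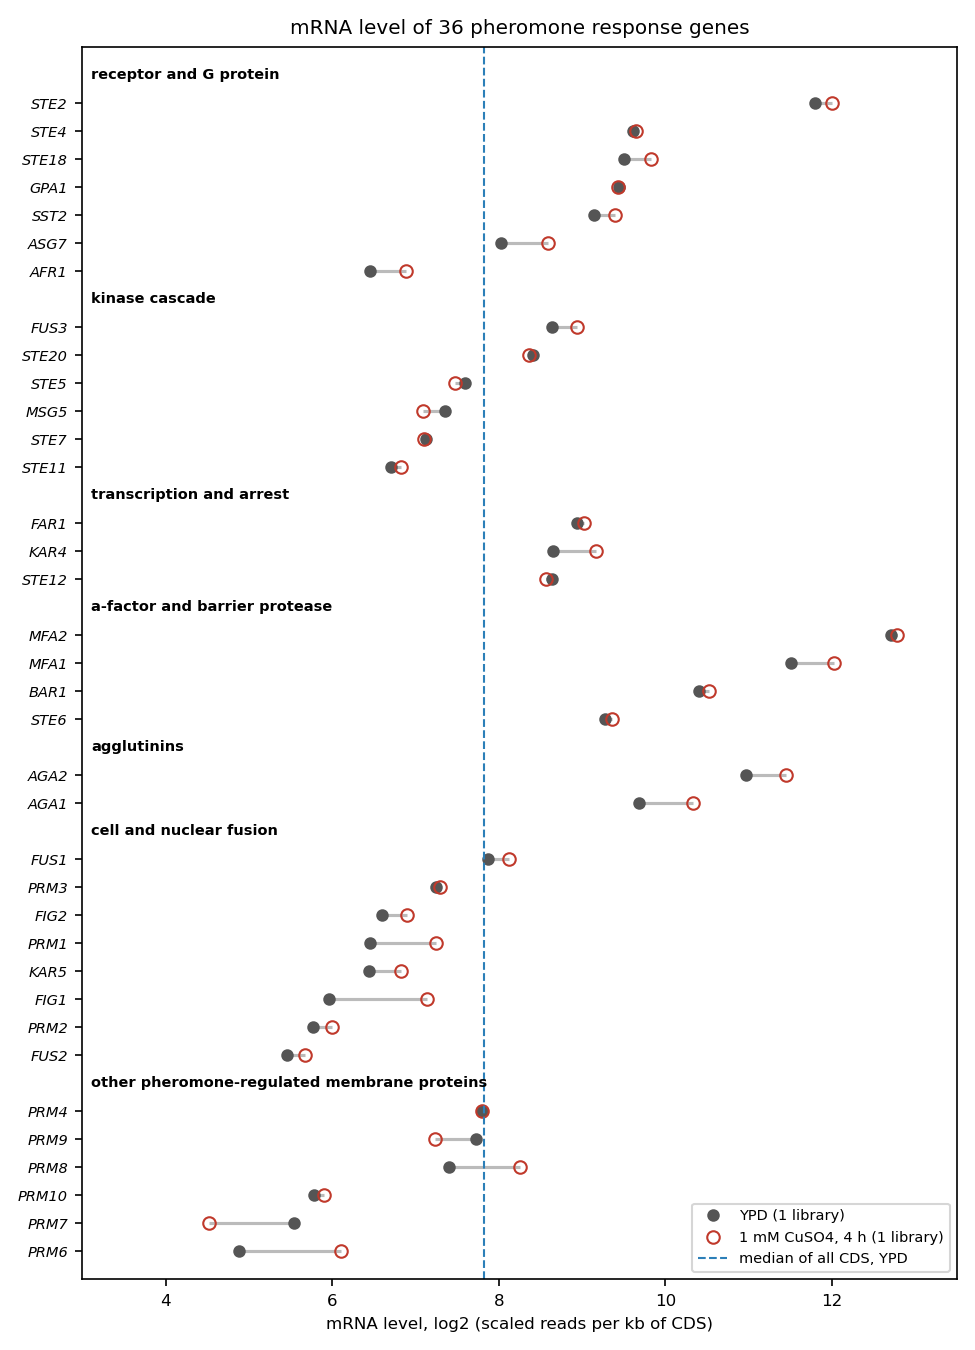
mRNA level (log2 of scaled reads per kb of CDS) of the 36 pheromone response genes, grouped by role, in YPD (filled) and with CuSO4 (open), 1 library each and no error bars because there are no replicates; the dashed line is the median of all CDS in YPD. The a-factor, receptor and agglutinin genes lie at the right, the fusion genes and most PRM genes at the left, and the largest shifts between libraries are those of *PRM6*, *FIG1* and *PRM7*.

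The change with CuSO4 was above 0 in 28 of 36 genes, where 53.2% of all 6078 CDS with enough reads were above 0. The median change of the members was 0.22, and that of all CDS 0.01, with the quartiles of all CDS at -0.10 and 0.13. The counting interval lay wholly above 0 for 19 members and wholly below 0 for 2, where the shares over all CDS were 11.6% and 10.1%. Summed over the 36 genes, reads went from 22896 to 27328, or from 0.411% to 0.475% of all reads on CDS. Of the members, 5 were at least 1.5-fold higher with CuSO4 (*AGA1*, *FIG1*, *PRM1*, *PRM6* and *PRM8*) and 1 was at least 1.5-fold lower (*PRM7*); among all CDS, 2.4% were as much higher and 1.53% as much lower. At 2-fold the members were *FIG1* and *PRM6* on the higher side and *PRM7* on the lower, where the shares over all CDS were 0.526% and 0.658%. Just inside the 1.5-fold threshold was *AGA1* with a change of 0.65, and just outside it was *ASG7* with 0.56. Since the list was drawn up with these libraries known, nothing is read from the counts.

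**Figure D3:**
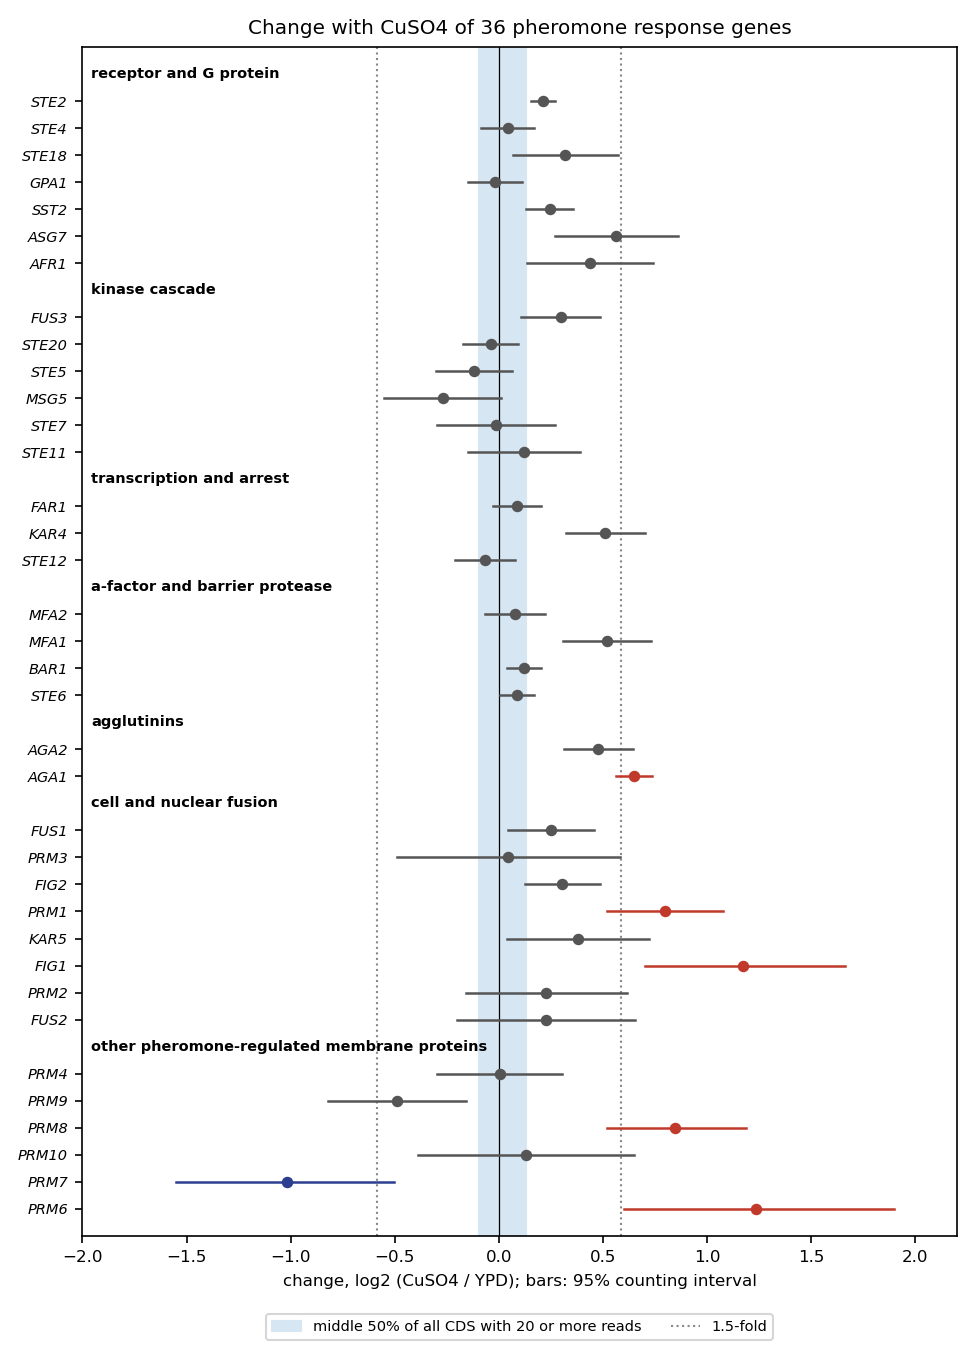
Change with CuSO4 (log2 of CuSO4 over YPD) of the 36 genes by role, with 95% Clopper-Pearson intervals that cover counting error only; the band runs between the quartiles of all CDS with 20 or more reads, and the dotted lines mark 1.5-fold. Points past 1.5-fold are coloured: 5 lie to the right, up to 1.23 for *PRM6*, and *PRM7* lies to the left at -1.02.

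Of the receptor and G protein genes, 6 of 7 had a change above 0 and none passed 1.5-fold. *STE2* (YFL026W), the α-factor receptor, had 4433 reads in YPD and 5320 with CuSO4, a change of 0.21 (0.16 to 0.27). With the deepest coverage of all members, it has the narrowest interval. *GPA1* (YHR005C), the Gα subunit, had 955 and 977 reads and a change of -0.02 (-0.15 to 0.11). *STE4* (YOR212W), the Gβ subunit, had 960 and 1023 reads and a change of 0.04 (-0.09 to 0.17). The Gγ gene *STE18* (YJR086W) had 234 and 302 reads and a change of 0.32 (0.07 to 0.57). Of these 3 subunits only *STE18* has an interval that leaves out 0; its interval overlaps those of *STE4* and *GPA1*, and no difference between the subunits was tested. *SST2* (YLR452C) encodes the GTPase activator that switches Gα off, and had 1148 and 1407 reads, a change of 0.24 (0.13 to 0.36). *AFR1* (YDR085C), a regulator of receptor signalling, went from 157 to 220 reads (0.44), and *ASG7* (YJL170C), an a-specific inhibitor of Gβ signalling, from 159 to 243 (0.56).

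The kinase cascade was closest to no difference. Its median change was -0.03, 4 of its 6 genes were below 0 and 1 had an interval that left out 0. *STE20* (YHL007C), the kinase that starts the cascade, had 923 and 930 reads (-0.04). The scaffold gene *STE5* (YDR103W) had 514 and 490 reads and a change of -0.12 (-0.30 to 0.06). *STE11* (YLR362W) had 217 and 244 reads (0.12) and *STE7* (YDL159W) had 208 and 213 (-0.02); they encode the first and the middle kinase of the MAP kinase module. *FUS3* (YBL016W), its MAP kinase, is the member whose interval left out 0, with 410 and 521 reads and a change of 0.30 (0.11 to 0.49). *MSG5* (YNL053W), the phosphatase that acts on Fus3, had 233 and 200 reads, and its change of -0.27 (-0.55 to 0.01) has an interval that includes 0, though not with each library centred on its median. Of these genes *STE20* and *STE7* overlap CDS of the other strand, by 206 bp and by 177 and 163 bp, and reads there may belong to either.

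Among the regulators downstream, *STE12* (YHR084W), the transcription factor of the pathway, had 794 and 785 reads and a change of -0.07 (-0.21 to 0.08). *FAR1* (YJL157C), the inhibitor of G1 cyclin-dependent kinase, had 1183 and 1299 reads and a change of 0.09 (-0.03 to 0.20). Neither was distinguishable between the libraries at this depth. *KAR4* (YCL055W), a transcription factor for nuclear fusion genes that is itself induced by pheromone, had 391 and 577 reads, a change of 0.51 (0.32 to 0.70).

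The 4 genes for a-factor and the barrier protease were all above 0 and none passed 1.5-fold. *MFA1* (YDR461W) and *MFA2* (YNL145W) both encode precursors of a-factor. *MFA1* went from 312 to 463 reads, a change of 0.52 (0.31 to 0.73), whereas *MFA2* had 754 and 824 reads and a change of 0.08 (-0.07 to 0.22). The intervals of this pair of genes do not overlap. *STE6* (YKL209C), the transporter that exports a-factor, had 2313 and 2542 reads (0.09), and *BAR1* (YIL015W), the secreted protease that degrades α-factor, had 2303 and 2593 (0.12). The intervals of both lay just above 0; that of *STE6* includes 0 once each library is centred on its median.

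Both subunits of a-agglutinin, the adhesin of a cells, were higher with CuSO4. *AGA1* (YNR044W, chromosome XIV from 703699 to 705876), the cell wall anchor, had 1722 reads in YPD and 2793 with CuSO4, a change of 0.65 (0.56 to 0.74) or 1.57-fold. It has by far the most reads of the members past 1.5-fold, and its neighbours *MVD1* and *PET494* had changes of 0.00 and 0.08. *AGA2* (YGL032C), the binding subunit, had 510 and 735 reads and a change of 0.48 (0.31 to 0.64).

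All 8 genes of cell and nuclear fusion had changes above 0, with a median of 0.28, and 5 had intervals above 0. *FIG1* (YBR040W, chromosome II from 316968 to 317864), a membrane protein of calcium influx during mating, had 54 reads in YPD and 126 with CuSO4, a change of 1.17 (0.70 to 1.66) or 2.25-fold. *PRM1* (YNL279W, chromosome XIV from 110917 to 112902), which acts in fusion of the plasma membranes, had 168 and 302 reads, a change of 0.80 (0.52 to 1.08) or 1.74-fold. On either side of these 2 genes the CDS did not share the difference: *ATP3* and *FAT1* beside *FIG1* had changes of 0.15 and 0.13, and *ERG24* and *CAF120* beside *PRM1* both had -0.05. *FUS1* (YCL027W), the classical reporter of the pathway, had 347 and 427 reads and a change of 0.25 (0.04 to 0.46). *FIG2* (YCR089W), a cell wall adhesin of the mating projection, had 450 and 575 reads (0.30), and *KAR5* (YMR065W), needed for fusion of the nuclear envelopes, had 127 and 171 (0.38). The intervals of *FUS2* (YMR232W), *PRM2* (YIL037C) and *PRM3* (YPL192C) include 0, with 86 and 104, 104 and 126, and 59 and 63 reads and changes of 0.22, 0.23 and 0.04.

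The remaining pheromone-regulated membrane proteins went in both directions. *PRM6* (YML047C, chromosome XIII from 180017 to 181075), a potassium transport protein, had 30 reads in YPD and 73 with CuSO4, a change of 1.23 (0.60 to 1.90). *PRM8* (YGL053W, chromosome VII) had 117 and 218 reads, a change of 0.85 (0.52 to 1.18) or 1.80-fold. In the opposite direction, *PRM7* (YDL039C, chromosome IV) had 94 and 48 reads and a change of -1.02 (-1.55 to -0.50). *PRM9* (YAR031W, chromosome I) had 183 and 135 reads and a change of -0.49 (-0.82 to -0.16), which does not reach 1.5-fold. *PRM4* (YPL156C) and *PRM10* (YJL108C) had intervals that include 0, with 183 and 190 reads (0.00) and 61 and 69 reads (0.13).

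*PRM8* and *PRM9*, which differ in direction, are paralogues of the DUP240 family. In the R64 genome the *PRM9* sequence matches *PRM8* at 84.2% identity over 818 bp, and no stretch of either is repeated elsewhere at 95% identity or more. The DUP240 gene *MST27*, 2 CDS downstream of *PRM8*, went from 33 to 100 reads, a change of 1.55 (0.97 to 2.16). Beside *PRM7*, its upstream neighbour *BSC1* on the same strand went from 33 to 16 reads, a change of -1.09 (-2.05 to -0.19), and a stretch of 167 bp of *PRM7* matches chromosome IV from 384242 to 384408, between the 2 genes, at 83.8% identity. *YGL052W*, between *PRM8* and *MST27*, had 52 and 40 reads. Near *PRM9*, the DUP240 gene *MST28* had 127 and 86 reads, a change of -0.61. The second CDS beyond *PRM6*, *YML045W-A*, went from 22 to 44 reads, a change of 0.95 (0.18 to 1.76). Repeats of *YML045W-A* were not searched, so where its reads belong is not known. *PRP39*, which lies between it and *PRM6*, had a change of 0.07, and *GSF2*, on the other side of *PRM6*, had 0.04. *MST27*, *BSC1*, *MST28*, *YGL052W* and *YML045W-A* were named after their values were seen. All but *YGL052W* differed in the direction of the member they lie near. Other nearby CDS differed the other way or little. *YAR030C*, which overlaps *PRM9* by 18 bp, went from 26 to 43 reads (0.68). *UIP3*, *KTD1* and *DFP2*, also DUP240 genes near *PRM9*, differed in the direction opposite to it. They went from 302 to 423 reads (0.44), 158 to 193 (0.24) and 28 to 37 (0.35). Near *PRM8* and *PRM7*, *ERV14* and *PUS9* had changes of -0.03 and 0.01. *PRM6* is overlapped by *YML047W-A*, which covers it over 242 bp on the other strand and had 13 and 20 reads (0.57, interval -0.51 to 1.70). What part neighbouring transcripts or misplaced reads have in these values was not tested.

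**Figure D4:**
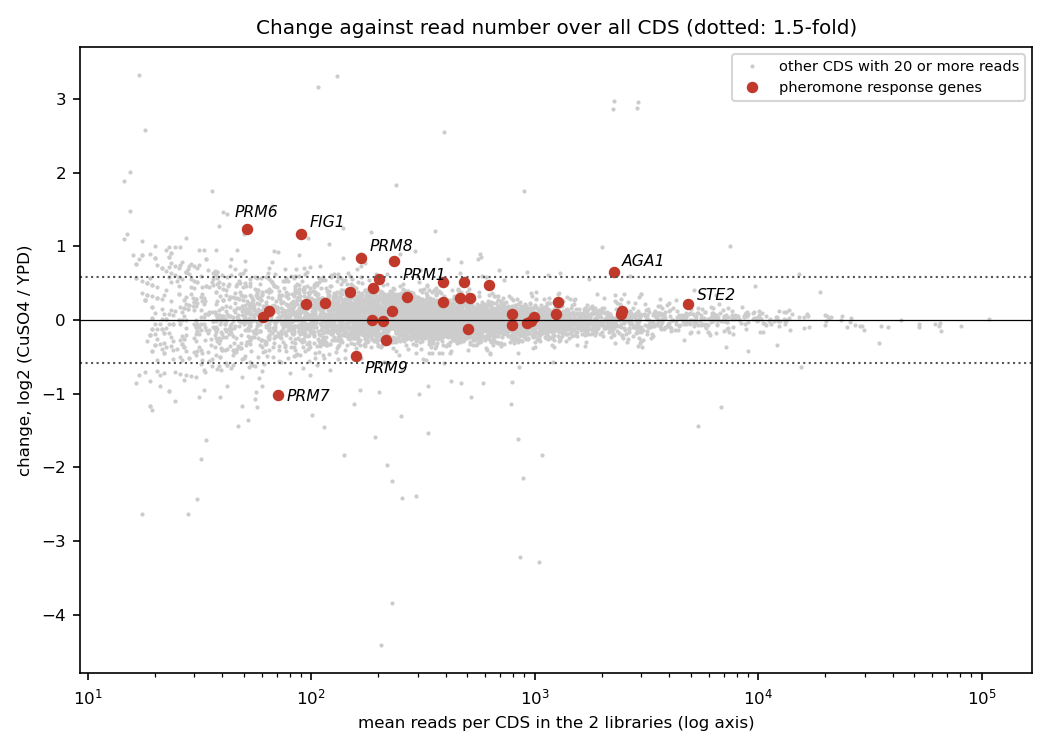
Change with CuSO4 (log2) against the mean reads of both libraries (log axis) for all CDS with 20 or more reads in the higher library (grey) and the 36 pheromone response genes (red); dotted lines mark 1.5-fold. *FIG1*, *PRM6* and *PRM7* lie among CDS of few reads, where the grey cloud is wide, while *AGA1*, with 1722 and 2793 reads, lies well above a narrow part of it.

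The response elements were set beside the changes as a description only. The members were chosen as genes of the pheromone response with both libraries known, so neither the elements nor the changes are independent of that choice. The 18 members with TGAAACA in the window, *STE7* and *PRM10* with it only inside the CDS, had a median change of 0.24, with 17 above 0. The 18 without it had 0.06, with 11 above 0. Elements also differ by role: *STE20*, *STE5*, *STE11* and *MSG5* of the cascade lack the 7-letter match in both windows used. When the window was widened to 500 bases before the CDS, which was decided after seeing the data, the element was present at 24 members and at 801 of all 6697 CDS. Their median change was 0.27, and that of the 12 others was -0.01. The 7 members without even a 6-letter match in those 500 bases were *KAR5*, *STE11*, *STE20*, *STE5*, *MSG5*, *PRM9* and *PRM7*. Their changes ran from -1.02 to 0.38, and 5 were below 0. Over all CDS with 20 or more reads, the 458 with it in the window had a median change of 0.01 and the 5620 without it had 0.01 as well. Members with the same number of elements had a range of changes. Of those with 3 within 500 bases, *PRM1* had 0.80 and *STE12* had -0.07. Those with 2 ran from 0.04 (*STE4*) to 1.23 (*PRM6*).

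**Figure D5:**
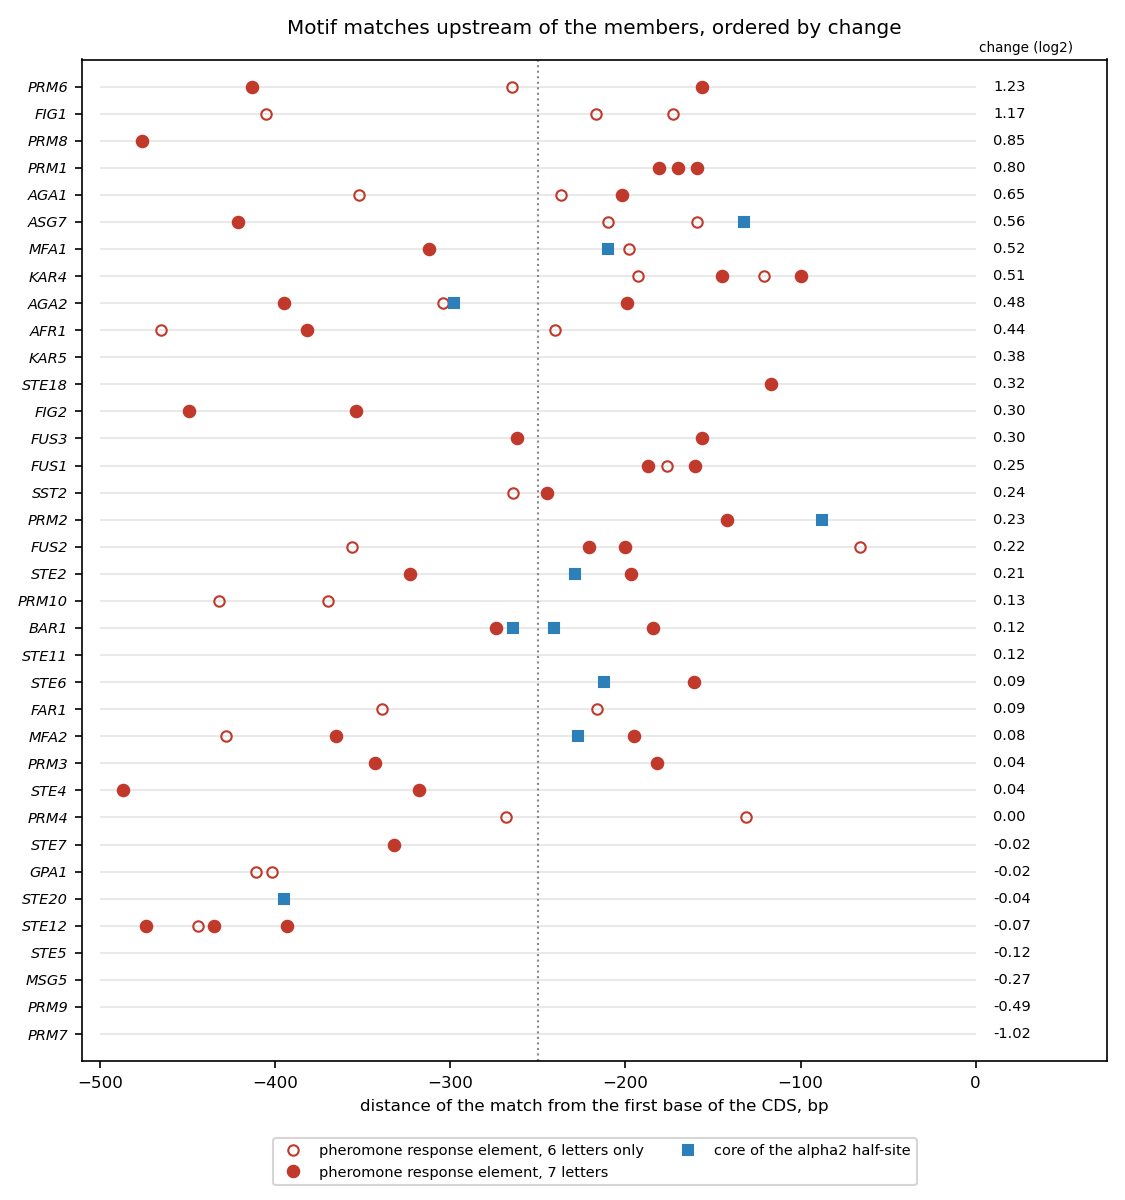
Motif matches in the 500 bp before each CDS, with members ordered by change (log2, at the right); filled circles are 7-letter and open circles 6-letter-only pheromone response elements, squares are the core of the α2 half-site, and the dotted line marks 250 bp. No element is seen in the lowest 4 members, *STE5*, *MSG5*, *PRM9* and *PRM7*, nor in *KAR5*, *STE11* and *STE20* higher up, and squares lie at the 7 a-specific genes and at *PRM2* and *STE20*.

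γH2A is a measure that the mRNA columns do not touch. A CDS was taken to have an upstream peak where at least 1 bp of one lay in the 1000 bp before its start. Only 1 of the 36 members has such a peak, *PRM6*, against 6.64% of all CDS, and no member lies within 20 kb of a chromosome end. At *PRM6* the peak runs from 180068 to 181222 on chromosome XIII, with 2.48-fold enrichment by the authors' peak caller, where the median of the 240 peaks is 2.51. It reaches only 147 bp upstream of the start, covers 95.2% of the CDS and has its summit 242 bp inside it. When peaks over the CDS were counted instead, a count added after the data were seen, *FIG1* joined it: a peak of 2.81-fold from 317013 to 317948 on chromosome II covers 852 of the 897 bp of *FIG1*, with its summit 655 bp inside. That makes 2 of 36 members, against 4.91% of all CDS, a share near the background. These are also the members with the largest changes on the higher side. These peaks also lie in the 1000 bp before *PRP39* and *FAT1*, whose changes were 0.07 and 0.13. Whether γH2A at these genes has a part in their change was not tested.

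Other genes that serve the pathway in growing cells as well were read for comparison, from lists set by role. Of 14 genes for polarity, adaptors, Ste12 inhibitors and phosphatases (among them *CDC42*, *CDC24*, *BEM1*, *STE50*, *KSS1*, *DIG1* and *DIG2*), none passed 1.5-fold in either direction, and their median change was -0.06. Intervals lay wholly below 0 for 4 (*CDC24*, *PTP3*, *AKR1* and *SPA2*) and wholly above 0 for none, where the shares over all CDS were 10.1% and 11.6%. *KSS1*, the MAP kinase that partly overlaps Fus3 in function, had 214 and 229 reads (0.05), and *DIG1* and *DIG2*, which inhibit Ste12, had changes of -0.11 and 0.03. Of 7 genes that process a-factor, none passed 1.5-fold and the median was 0.10; *STE14*, its methyltransferase, had 255 and 301 reads (0.19). Among 5 further fusion and PRM genes, *KAR1*, *KAR2*, *KAR3*, *CIK1* and *PRM5*, 1 was past 1.5-fold. That is *PRM5*, a target of the cell wall integrity pathway, which went from 168 to 267 reads, a change of 0.62 (0.33 to 0.91).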

How the data were processed

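The mRNA table and the γH2A peak list were used as deposited. The authors mapped mRNA reads to R64-2-1 with HISAT2, counted them on annotated CDS in SeqMonk and deposited log2 values divided by CDS length. Their methods describe a further scaling of all data to a common median; the deposited values (medians 7.82 and 7.84) instead fit a scaling to the larger library. The submitters' processing notes give HISAT2 2.0.5, Bowtie2 2.2.5, MACS2 and genome R64. A CDS without reads sits at 0.9 reads in the deposited log2 values. With the library scale taken from that floor (1.04 in YPD and 1 with CuSO4), 99.9% of the other values in each library gave whole reads within 0.02. The counts recovered in this way were used for the minimum of 20 reads and for intervals. Whether strand was used in counting is not given in the sources used here.

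Peak calling by the authors used MACS2, after which they filtered the list manually; all deposited peaks are above 2-fold. The deposited pileup (signal), fold enrichment (ratio) and -log10 p-value are those of the peak caller; the fold enrichment describes peaks here. The list names no library in its columns, and the study describes peaks of unstressed cells. The γH2A library of cells with CuSO4 was not analysed here.

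Across the whole table, a CDS was counted as higher or lower past 1.5-fold, given 20 reads in whichever library had more. No test across samples was possible with 1 library for each condition, and no p-value is given. Intervals and the script for them were run on simulated reads with counting error only, the error that the intervals assume. That checks the script and says nothing of the spread between cultures. The members and lists were chosen with earlier results of these data known. Values are given for all members and, of other lists, for the genes past 1.5-fold, the α-specific genes, the deleted markers and a few by role. Symbols and positions of all 36 members in the files matched those of the RefSeq R64 annotation, whose genome gave the sequences. Repeats were sought with BLAST 2.17.0. Alternatives were other fold thresholds and read minimums, other scalings, added reads, other member sets, other peak windows and other motif lengths.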

Additional observations from a re-analysis of the deposited data

How the results depend on the processing

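No paired analysis was possible because there is a single library per condition, and no replicate could be left out. Of 49 alternatives for the counts and medians, 41 moved a count by less than 1.5 times or left a median inside its interval, and none reversed a direction. The count of members higher with CuSO4 (5) was 2 at 2-fold and 11 at the looser of the fold thresholds tried, and the count of those lower (1) was 2 at that looser threshold and 0 without *PRM6*, *PRM7* and *PRM9*. The 1 member with an upstream γH2A peak became 0 with the summit inside the window and 0 at 3-fold enrichment, and 2 with peaks over the CDS. Promoters with the pheromone response element (18) were 4 with 2 or more copies. The alternatives remove or add CDS, peaks or matches by their construction. Other scalings moved all changes by -0.01 to 0.02, and for single members 144 of 144 alternatives stayed within the counting interval. Shifts of that size are small beside the intervals, so this count was nearly fixed in advance and says little. Changes close to 0 turned sign: with median centring *PRM4* went below 0 (27 of 36 above 0), and with the upper quartile *GPA1* and *STE7* went above it (30 of 36). Median centring also left 18 intervals above 0, without *STE6*, and 3 below 0, with *MSG5*. These scalings for sign and interval counts were chosen after seeing the data. The widest counting intervals are those of *PRM6*, *PRM3*, *PRM7*, *PRM10*, *FIG1* and *FUS2*.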

Other observations

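Genes of the M/G1 phase, when daughter cells separate, were read because several pheromone response genes are also transcribed then. None of the 15 passed 1.5-fold, their median change was -0.11, and 6 were above 0. Intervals lay wholly below 0 for 6 and wholly above 0 for 2, where the shares over all CDS were 10.1% and 11.6%. The lowest were *EGT2* and *DSE4*, which act in cell separation, with changes of -0.35 (-0.43 to -0.28) and -0.33 (-0.44 to -0.23). *PIR1*, a cell wall protein, had -0.36 (-0.43 to -0.29). The highest was *DSE2* with 0.15 (0.07 to 0.24). *CTS1*, the chitinase, had 8565 and 9402 reads (0.08). Of 5 genes linked to filamentous growth, a response that also uses Ste12, none passed 1.5-fold: *TEC1* had a change of 0.09, *FLO11* had 58 and 60 reads, and *DDR48*, which stress also induces, had 0.36.

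The reference genome holds α information at MAT, whereas the strain is MATa. *HMRA1* had 277 and 277 reads and *HMRA2* had 186 and 188. The α2 CDS *HMLALPHA2* and *MATALPHA2* had 6 and 6 reads in YPD and 23 and 25 with CuSO4. Their changes of 1.89 (0.55 to 3.47) and 2.01 (0.69 to 3.58) are past 1.5-fold, with intervals above 0 that rest on few reads. The α1 CDS had 0 reads, apart from 2 on *MATALPHA1* with CuSO4. Identical sequence at the cassettes means that reads cannot be assigned to one of them. Among genes of diploid or meiotic cells, *SPO11* had 27 and 17 reads, a change of -0.72 (-1.68 to 0.21), and *IME1*, *IME2* and *NDT80* did not pass 1.5-fold.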
